A study of Mus musculus with 10 samples.

Results

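The B cell surface antigens described here are 9 mouse genes: Ms4a1 (CD20), Cd22, Cd72, Cd24a (CD24, heat-stable antigen), Ly6d, Cd38, Bst1 (CD157), Spn (CD43) and Ptprc (CD45, whose B cell form is B220). They were measured with every non-control probe whose transcript belongs to 1 of them, which gave 16 of the 56605 probes on the array. The rule names the genes and uses no measured value, but the set was drawn up with earlier results of these data known. They are 9 of the 22008 genes that could be tested. Of the 9 genes, 4 had 1 probe, 3 had 2 probes and 2 had 3 probes, and all 9 genes and all 16 probes passed the filter on dim probes.

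RNA came from BCR-ABL+ colonies, grown from bone marrow of 6-week-old donor mice that was exposed to retrovirus, harvested after 24 h and kept for 10 days in methylcellulose without growth factors. Cdk6-K43M colonies carried a CDK6 protein whose kinase is inactive (4 samples), Cdk6-/- colonies are labelled as null for the gene (4 samples), and Cdk6+/+ colonies were wild type (1 pool of RNA from 4 samples). All 3 groups carried BCR-ABL, the oncogenic tyrosine kinase made by the Philadelphia chromosome, so no untransformed cells were measured. Each mutant sample was labelled with Cy5 on its own array against the same wild-type pool in Cy3, and 1 further array per genotype held the pool of its 4 RNAs with the dyes exchanged. The study's design text calls the 4 samples biological replicates. The labels do not say how many animals or colonies stand behind each sample.

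B cell development is staged by these proteins. B220 appears with commitment to the lineage, CD43 is present on pro-B cells and is lost as they become pre-B cells, CD24 is high on precursors, and CD20 and CD22 increase as precursors mature. LY6D separates early lymphoid progenitors that are biased to the B lineage from those that are not. CD22 and CD72 restrain signalling by the B cell receptor, and CD45 permits it by keeping Src-family kinases active.

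Values are log2 ratios of mutant over the wild-type pool, so that 0 is the level of the pool, and the ratios of the exchanged-dye arrays were turned to the same direction. Between 46.9 and 49.9% of all probes were well above background in the mutant channel and between 45.8 and 50% in the wild-type channel (no saturated spots). Precision is limited by how many arrays there were. The targeted gene, Cdk6, read 0.35 in Cdk6-K43M (adjusted p = 0.031, limma) and -0.41 in Cdk6-/- (adjusted p = 0.0368). The Cdk6-/- value is far from absence of signal, and whether the probe lies inside the deleted part is not known, so it does little to check the label. Of the 16 probes of the surface antigens, 15 cleared background in the mutant and the wild-type channel on all 10 arrays. The exception was the dimmest Cd22 probe, which was well above background on 4 of 10 arrays in the mutant channel and on 10 of 10 in wild type. The arrays measured RNA and not protein, and the probes were not assigned to splice forms, so that B220 was not separated from other forms of CD45.

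RefSeq promoter windows (GRCm38.p6, 250 bases before to 50 after a start site) were matched for 5 of the 9 genes, Cd22, Cd72, Cd38, Spn and Ptprc, the last with a pair of windows. Ms4a1, Cd24a, Ly6d and Bst1 had no entry. The windows of an inhibitory receptor that was lower in Cdk6-K43M, of a second inhibitory receptor that differed in sign between the mutants, and of the antigen that was higher in both are shown, each on the strand of its gene (minus), 5′ to 3′. Capitals mark a match to the motif of EBF1 in Cd22 and to the core motif of PU.1 in Cd72, both B cell transcription factors.
Cd22, chr7:30878979-30879278: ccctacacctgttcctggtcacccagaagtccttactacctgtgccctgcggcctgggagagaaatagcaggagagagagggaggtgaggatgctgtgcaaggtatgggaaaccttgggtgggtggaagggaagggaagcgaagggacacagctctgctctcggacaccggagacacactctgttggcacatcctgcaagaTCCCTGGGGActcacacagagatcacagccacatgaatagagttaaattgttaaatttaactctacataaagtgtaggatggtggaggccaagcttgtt
Cd72, chr4:43454577-43454876: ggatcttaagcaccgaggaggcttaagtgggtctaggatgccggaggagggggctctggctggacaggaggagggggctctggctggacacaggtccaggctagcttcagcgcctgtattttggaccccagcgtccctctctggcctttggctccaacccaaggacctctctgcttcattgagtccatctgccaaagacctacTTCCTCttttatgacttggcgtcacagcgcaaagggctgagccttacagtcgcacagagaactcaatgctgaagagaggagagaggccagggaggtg
Spn, chr7:127137774-127138073: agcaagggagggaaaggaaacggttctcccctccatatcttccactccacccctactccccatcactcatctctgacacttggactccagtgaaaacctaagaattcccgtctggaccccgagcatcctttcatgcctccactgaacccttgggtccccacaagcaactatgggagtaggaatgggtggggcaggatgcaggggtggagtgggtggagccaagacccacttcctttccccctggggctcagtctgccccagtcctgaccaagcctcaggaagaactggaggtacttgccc
The printed windows all lie inside the spans of their genes given below, so their start sites are not the outermost ones. The EBF1 motif, TCCC and GGGA with any 2 bases between them, reads the same on both strands. Its match began 49 bases before the start site of the Cd22 window. It was found in 0.904% of all 32851 promoter windows and in no other window of the 5 genes. The PU.1 core, GAGGAA, was searched on both strands, and its match in Cd72 was on the reverse strand, 47 bases before the start site of that window. That core also lay 158 bases before a start site of Ptprc, and 28.3% of all windows held it. The Spn window held neither motif. A match describes the letters and is not evidence of binding. An E-box, CANNTG, was present in every window of the 5 genes and in 72.3% of all windows.

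Against wild type, Cdk6-K43M colonies had less Ms4a1, Ly6d, Cd22 and Cd24a RNA and more Spn RNA. These 5 of 9 genes passed the test (limma, Benjamini-Hochberg adjustment over all genes, threshold 0.05), against 20.1% of all genes. The 4 lower calls compare with 10.3% of all genes called lower. The median change of the 9 genes was -0.65, and that of all genes was -0.01. In Cdk6-/- colonies, Ly6d was lower and Spn was higher, and these 2 of 9 genes compare with 7.24% of all genes called. There the median of the 9 genes was -0.24, beside 0.0014 for all genes. Both comparisons share the wild-type pool, which entered as 1 control sample without a spread of its own. Less RNA per cell and fewer cells of a type cannot be told apart in colonies measured in bulk.

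**Figure D1:**
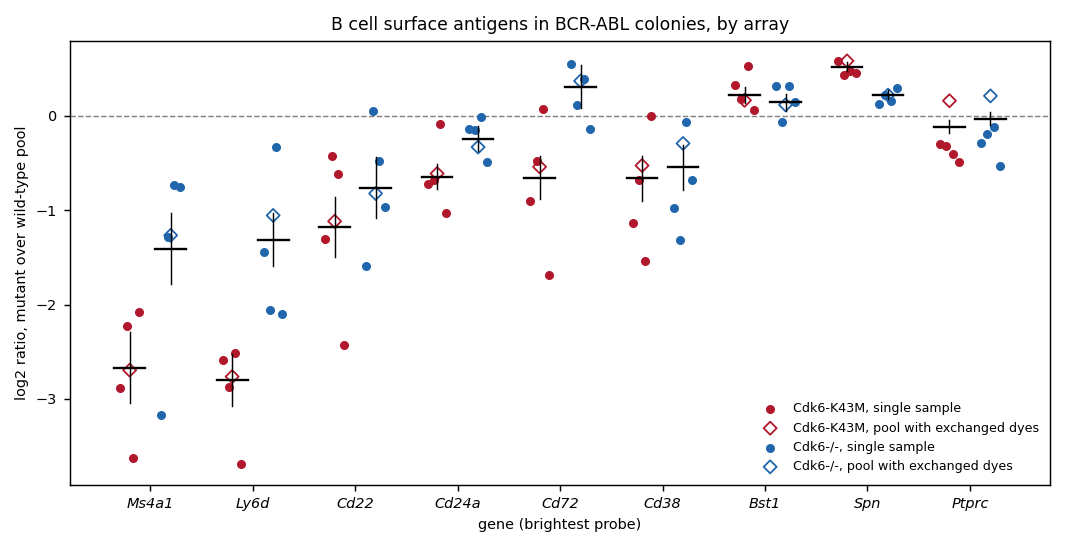
Log2 ratio of mutant over the wild-type pool (vertical axis) for the brightest probe of each of the 9 genes. Filled points are single samples in the order of replicates 1 to 4, open diamonds the pooled RNA with exchanged dyes, horizontal lines the fitted change and vertical lines its SE. All Cdk6-K43M points of Ms4a1 and Ly6d lie below -2, and all points of Spn lie above 0.

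Ms4a1 (GRCm38.p6 chromosome 19, 11249679 to 11266149) encodes CD20, a membrane protein of pre-B and mature B cells and the target of therapeutic antibodies in human B cell malignancies. Its log2 ratios were -2.88, -2.23, -3.63 and -2.08 in Cdk6-K43M replicates 1 to 4 and -2.69 in the Cdk6-K43M pool. In Cdk6-/- they were -3.17, -1.28, -0.74 and -0.75, with -1.26 in the pool. Every array lay below wild type, and Cdk6-/- replicate 1 lay within the range of the Cdk6-K43M samples, far from the other Cdk6-/- samples. The fitted change was -2.67 (SE 0.38, adjusted p = 0.00138, limma) in Cdk6-K43M, 6.35-fold lower than wild type and the 10th lowest of 22008 genes. In Cdk6-/- it was -1.41 (SE 0.38), which did not pass the threshold (adjusted p = 0.0531, limma). That value passed with the slide as a block (-1.61, adjusted p = 0.0293) and when Cdk6-K43M replicate 3 was left out of the joint fit (-1.45, adjusted p = 0.0472). The Cdk6-/- value passed under 3 of 18 other settings, and its adjusted p reached 0.325 (limma).

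Ly6d (chromosome 15, 74762056 to 74763567) encodes a small GPI-anchored surface protein that marks B-biased lymphoid progenitors. It read -2.59, -2.87, -2.51 and -3.69 in the 4 Cdk6-K43M samples and -2.76 in their pool. It read -1.44, -2.06, -0.32 and -2.10 in the 4 Cdk6-/- samples and -1.05 in their pool. The highest Cdk6-K43M sample was below the lowest Cdk6-/- sample, and Cdk6-/- replicate 3 was the sample closest to wild type. The change was -2.80 (SE 0.28, adjusted p = 0.000247, limma) in Cdk6-K43M, 6.96-fold lower than wild type and the 8th lowest of all genes. In Cdk6-/- the change was -1.31 (SE 0.28, adjusted p = 0.0254, limma), 2.48-fold lower. The Cdk6-/- call was lost without Cdk6-/- replicate 1 (adjusted p = 0.065) and without Cdk6-/- replicate 2 (adjusted p = 0.0571).

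Cd22 (chromosome 7, 30865404 to 30880342), whose promoter is printed above, encodes a receptor for sialic acid that recruits the phosphatase SHP-1 to the B cell receptor. Its brightest probe gave -1.30, -0.43, -0.62 and -2.43 in the Cdk6-K43M samples and -1.12 in their pool. In the Cdk6-/- samples it gave -1.59, 0.06, -0.47 and -0.96, with -0.82 in their pool. The 2 genotypes overlapped over most of their range, and Cdk6-K43M replicate 4 was lowest. In Cdk6-K43M the change was -1.18 (SE 0.32, adjusted p = 0.0284, limma), 2.26-fold lower than wild type. In Cdk6-/- it was -0.76 (SE 0.32, adjusted p = 0.179). All 3 Cd22 probes passed the probe-wise test in Cdk6-K43M, at -1.18, -0.71 and -0.37 from the brightest to the dimmest, where 20.2% of all probes passed. The dimmest was well above background in only 1 of 4 single Cdk6-K43M samples, so its value is not an exact change and adds little. In Cdk6-/- the 3 probes were at -0.76, -0.42 and -0.23, and none passed, where 6.8% of all probes did. The Cdk6-K43M call of Cd22 was lost without Cdk6-K43M replicate 1 (adjusted p = 0.0611).

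Cd72 (chromosome 4, 43447724 to 43455102) encodes the second inhibitory coreceptor of the set, a C-type lectin-like protein that also recruits SHP-1. The Cdk6-K43M samples read -0.91, -0.48, 0.07 and -1.69 and their pool -0.54. The Cdk6-/- samples read 0.55, 0.11, 0.39 and -0.13 and their pool 0.37. Cdk6-K43M replicate 3 was at the wild-type level and overlapped the Cdk6-/- samples, and the other Cdk6-K43M samples lay below every Cdk6-/- sample. The change was -0.65 in Cdk6-K43M (SE 0.23, adjusted p = 0.0687, limma) and 0.31 in Cdk6-/- (SE 0.23, adjusted p = 0.428). Neither passed. The second Cd72 probe gave -0.55 and 0.31 in the same order. Without Cdk6-K43M replicate 3 the Cdk6-K43M change was -0.83 and passed (adjusted p = 0.0188). It passed under 2 of 18 other settings, and its adjusted p reached 0.284 (limma).

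Cd24a (chromosome 10, 43579169 to 43584265) encodes a GPI-anchored sialoglycoprotein that is abundant on B cell precursors. Its log2 ratios were -0.73, -0.68, -0.08 and -1.02 in the Cdk6-K43M samples and -0.61 in their pool. They were -0.14, -0.15, -0.01 and -0.48 in the Cdk6-/- samples and -0.33 in their pool. As for Cd72, Cdk6-K43M replicate 3 was near wild type. The Cdk6-K43M change of -0.64 passed (SE 0.13, adjusted p = 0.00757, limma), and the Cdk6-/- change of -0.24 did not (SE 0.13, adjusted p = 0.283). The second probe gave -0.59 in Cdk6-K43M, which passed, and -0.27 in Cdk6-/-, which did not. With each array centred on its median in place of loess, the Cdk6-K43M change of Cd24a was -0.32 and did not pass (adjusted p = 0.16).

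**Figure D2:**
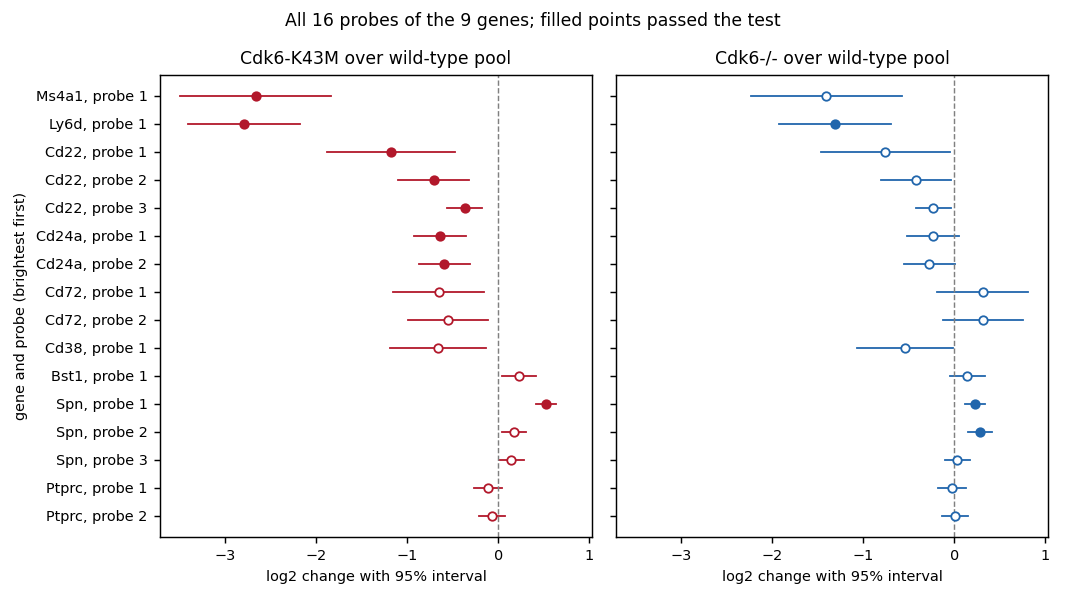
Log2 change over the wild-type pool with its 95% interval for all 16 probes (rows, brightest probe of a gene first) in Cdk6-K43M (left) and Cdk6-/- (right). Filled points passed the probe-wise test. The 3 Cd22 probes and the 2 Cd24a probes passed together in Cdk6-K43M, whereas 1 of the 3 Spn probes did.

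Spn (chromosome 7, 127123637 to 127145552) encodes CD43, a heavily O-glycosylated sialomucin of pro-B cells, T cells and myeloid cells. Its ratios were 0.58, 0.43, 0.48 and 0.46 in the Cdk6-K43M samples and 0.58 in their pool. They were 0.12, 0.22, 0.16 and 0.29 in the Cdk6-/- samples and 0.22 in their pool. On this probe, the brightest, all arrays were above wild type and the genotypes did not overlap. The changes of 0.52 in Cdk6-K43M (SE 0.048, adjusted p = 0.000149, limma) and 0.22 in Cdk6-/- (SE 0.048, adjusted p = 0.0256) both passed and were small, 1.44-fold and 1.17-fold. The probes of Spn disagreed in size. In Cdk6-K43M the other probes gave 0.17 (adjusted p = 0.0742) and 0.14 (adjusted p = 0.129), and in Cdk6-/- they gave 0.28, which passed, and 0.03, which did not. Without Cdk6-/- replicate 1 or replicate 2 the Cdk6-/- call was lost (adjusted p = 0.0501 and 0.0585).

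Cd38 and Bst1 are neighbouring genes of 1 family on chromosome 5 (43868809 to 43912374 and 43818880 to 43843468), and their products are ectoenzymes that use NAD. Cd38 read -1.14, -0.68, -1.54 and 0.00 in the Cdk6-K43M samples and -0.53 in their pool. It read -0.97, -1.31, -0.06 and -0.67 in the Cdk6-/- samples and -0.29 in their pool. Each genotype had 1 sample at about the wild-type level and 3 below it. The changes of -0.66 in Cdk6-K43M (SE 0.24, adjusted p = 0.0799, limma) and -0.54 in Cdk6-/- (SE 0.24, adjusted p = 0.193) did not pass. Without Cdk6-K43M replicate 4, Cd38 in Cdk6-K43M was -0.84 and passed (adjusted p = 0.0193). That value passed under 3 of 18 other settings, and its adjusted p reached 0.309 (limma). Bst1 lay on the other side of 0, at 0.33, 0.18, 0.53 and 0.06 in Cdk6-K43M samples and 0.32, -0.06, 0.32 and 0.15 in Cdk6-/- samples. Its changes of 0.23 (SE 0.085, adjusted p = 0.0903) and 0.14 (SE 0.085, adjusted p = 0.327) in that order did not pass.

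Ptprc (chromosome 1, 138062859 to 138175756) encodes the tyrosine phosphatase CD45 of all nucleated blood cells. On its brightest probe, the single Cdk6-K43M samples read -0.30, -0.32, -0.40 and -0.49, and their pool read 0.16. The single Cdk6-/- samples read -0.28, -0.19, -0.12 and -0.53, and their pool read 0.21. On that probe all single samples were below wild type and both exchanged-dye pools above it. The second probe read 0.21, -0.12, 0.01 and -0.0032 in the Cdk6-K43M samples and -0.13 in their pool. It read 0.11, 0.28, 0.16 and 0.02 in the Cdk6-/- samples and -0.17 in their pool, so that all 4 single Cdk6-/- samples lay above wild type and both pools below it. For the brightest probe, Ptprc was the only one of the 9 genes whose dye effect passed the threshold (-0.26, SE 0.053, adjusted p = 0.0186, limma). With the dye taken into account, the changes were -0.11 in Cdk6-K43M (SE 0.068, adjusted p = 0.278) and -0.03 in Cdk6-/- (SE 0.068, adjusted p = 0.846), and those of the second probe were -0.08 and 0.01 in the same order. From the 8 single-sample arrays without a dye term they were -0.38 (adjusted p = 0.00602) and -0.28 (adjusted p = 0.0331).

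Setting Cdk6-K43M against Cdk6-/- on the 8 single-sample arrays asks whether an inactive kinase and a missing protein differ. None of the 9 genes passed (limma, adjusted over all genes), and 0.513% of all genes did. At an unadjusted p under 0.05 there were 3 of 9, Ly6d, Cd72 and Spn, against 14.1% of all genes. On the brightest probe of each gene, the groups did not overlap for 2 of 9, Ly6d and Spn, against 8.15% of all genes. Ly6d averaged -2.92 ± 0.54 in Cdk6-K43M and -1.48 ± 0.83 in Cdk6-/- (SD, n = 4 each). The difference was -1.43 with a 95% interval from -2.37 to -0.50 (adjusted p = 0.197, limma). On the 3 slides taken separately it was -1.14, -2.07 and -0.45. Slides 1 and 3 held 1 single sample of each genotype and slide 2 held 2 of each, so within-slide values rest on few arrays. Spn averaged 0.49 ± 0.066 in Cdk6-K43M and 0.20 ± 0.074 in Cdk6-/- (SD, n = 4 each), a difference of 0.29 (0.13 to 0.45, adjusted p = 0.154, limma) that was 0.46, 0.22 and 0.26 within slides. In the fit of all 10 arrays the Spn difference was 0.30 and passed (adjusted p = 0.0354). The second Spn probe went the other way, at -0.13 (adjusted p = 0.541), and the third read 0.11 (adjusted p = 0.621, limma). On both of these probes the genotypes overlapped.

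For Cd72 the difference between the genotypes was -0.98 (95% interval -1.74 to -0.22, adjusted p = 0.256, limma), with -1.46 and -1.21 within slides 1 and 2 and -0.04 within slide 3. For Ms4a1 it was -1.22 (-2.49 to 0.05, adjusted p = 0.368), with 0.28 within slide 1, where Cdk6-/- replicate 1 lay, and -1.41 and -2.34 within slides 2 and 3. The difference of Cd24a was -0.43 (-0.87 to 0.00053, adjusted p = 0.356), and that of Cd22 was -0.45 (-1.53 to 0.63, adjusted p = 0.708). The intervals of Cd38 (-0.89 to 0.72), Bst1 (-0.19 to 0.38) and Ptprc (-0.33 to 0.13) also included 0. An interval that includes 0 does not show that the genotypes were alike.

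The 9 genes did not move as a block across samples. Cdk6-K43M replicate 4 had the lowest Ly6d, Cd22, Cd72 and Cd24a of its group and at the same time the highest Ms4a1 and Cd38. Cdk6-K43M replicate 3 had the lowest Ms4a1 and Cd38 and the highest Cd72, Cd24a and Ly6d. As a description over the 8 single-sample arrays, which share the wild-type pool and span both genotypes, Pearson's r was 0.94 between Cd72 and Cd24a and 0.83 between Cd72 and Ly6d. Between Cd72 and Cd38 it was -0.36. Within the 4 Cdk6-/- samples alone, r was 0.80 between Cd72 and Cd24a, 0.65 between Cd72 and Ly6d and 0.16 between Cd72 and Cd38. The negative value for Cd38 was thus not seen in Cdk6-/- samples.

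**Figure D3:**
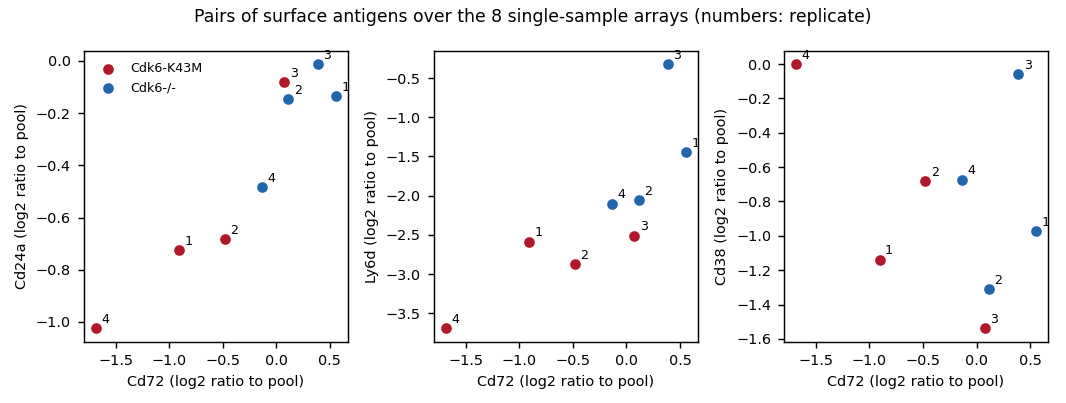
Log2 ratio to the wild-type pool of Cd24a (left), Ly6d (middle) and Cd38 (right) against that of Cd72 over the 8 single-sample arrays, with the replicate number beside each point. Cdk6-K43M replicate 4 is lowest for Cd72, Cd24a and Ly6d and highest for Cd38.

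Over the same 8 arrays the gene most like Cd72 was St6gal1 (r = 0.996), which encodes the sialyltransferase that makes the sialic acid linkage bound by CD22. For Ly6d it was Spin1 (0.992), for Spn Ttc37 (0.986), for Cd24a Sun2 (0.985), for Bst1 Lrrc1 (0.980) and for Ptprc Crygd (0.958). For Cd38 it was Ostm1 (0.953), for Cd22 Ephx1 (0.952) and for Ms4a1 Carmil3 (0.935). These are the highest values among all genes with a symbol.

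Among 18 genes of B cell receptor signalling and of CD45's partners, 8 were lower, 1 was higher (Fyn, 0.34) and 9 did not pass in Cdk6-K43M, with a median of -0.20. In Cdk6-/- 4 were lower, none was higher and 14 did not pass, with a median of -0.03. Over all genes, 20.1% were called in Cdk6-K43M (10.3% lower) and 7.24% in Cdk6-/-. The medians of all genes were -0.01 and 0.0014 in the same order. Ptpn6, which encodes the SHP-1 recruited by CD22 and CD72, fell by 0.39 in Cdk6-K43M (SE 0.065, adjusted p = 0.00284, limma) and by 0.63 in Cdk6-/- (SE 0.065, adjusted p = 0.000771). Lyn, the kinase that phosphorylates CD22, was at -0.98 in Cdk6-K43M (adjusted p = 0.000934) and -0.58 in Cdk6-/- (adjusted p = 0.0288). Syk, the kinase next to the receptor, was at -0.56 in Cdk6-K43M (adjusted p = 0.000959) and -0.31 in Cdk6-/- (adjusted p = 0.0351). Cd79b, a signalling chain of the receptor, was at -0.51 in Cdk6-K43M (adjusted p = 0.000956). Prkcb, a protein kinase C, was at -0.57 in Cdk6-K43M (adjusted p = 0.00403) and -0.56 in Cdk6-/- (adjusted p = 0.0136), and the Cdk6-/- call was lost with the slide as a block. The Cdk6-/- calls of Lyn and Syk were lost under 7 and 9 of 18 other settings, among them those without Cdk6-/- replicate 1, 2 or 4. With median centring, Cd79b (-0.18) and Ptpn6 (-0.19) no longer passed in Cdk6-K43M.

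Of 24 other B cell surface proteins that could be tested, 7 were lower and 1 was higher (Il7r, 0.62) in Cdk6-K43M, with a median of -0.18. In Cdk6-/- 5 were lower and none was higher, with a median of -0.15. These counts compare with 20.1% of all genes called in Cdk6-K43M (10.3% lower) and 7.24% in Cdk6-/-. Tnfrsf13c, the receptor for the survival factor BAFF, was at -1.38 in Cdk6-K43M (SE 0.18, adjusted p = 0.000972, limma) and -0.74 in Cdk6-/- (SE 0.18, adjusted p = 0.0397), while its other probe read -0.54 and -0.32. Cd2, an adhesion receptor, was at -1.32 and -1.19 in the same order and Cd81, a tetraspanin of the B cell surface, at -0.33 and -0.38, and all 4 values passed. With median centring the Cdk6-K43M value of Cd81 was -0.03 and did not pass (adjusted p = 0.773). In Cdk6-/- Fcgr2b, an inhibitory Fc receptor, was at -0.92 and Cd55, a complement regulator, at -0.63, and both passed. The Cdk6-/- calls of Tnfrsf13c and Cd2 were each lost under 8 of 18 settings, among them those without Cdk6-/- replicate 1, 2 or 4, and that of Fcgr2b was lost without Cdk6-/- replicate 3.

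Of 14 genes of sialylation and O-glycan synthesis, which build the glycans that CD22 binds and CD43 carries, 3 were higher and 3 lower in Cdk6-K43M, and 1 was higher in Cdk6-/-. The shares of all genes called were 20.1% in Cdk6-K43M and 7.24% in Cdk6-/-. Gcnt1, which branches O-glycans such as those of CD43, was at 0.63 in Cdk6-K43M (SE 0.067, adjusted p = 0.00032, limma) and 0.39 in Cdk6-/- (SE 0.067, adjusted p = 0.0119). St6gal1 was at -0.94 in Cdk6-K43M (SE 0.16, adjusted p = 0.0034), but its other probe read -0.07. The other lower genes were St3gal1 (-0.58) and St6galnac1 (-0.31). The sialyltransferases St3gal2 (0.56) and St3gal4 (0.35) were higher in Cdk6-K43M, and the other probe of St3gal2 read -0.0051.

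**Figure D4:**
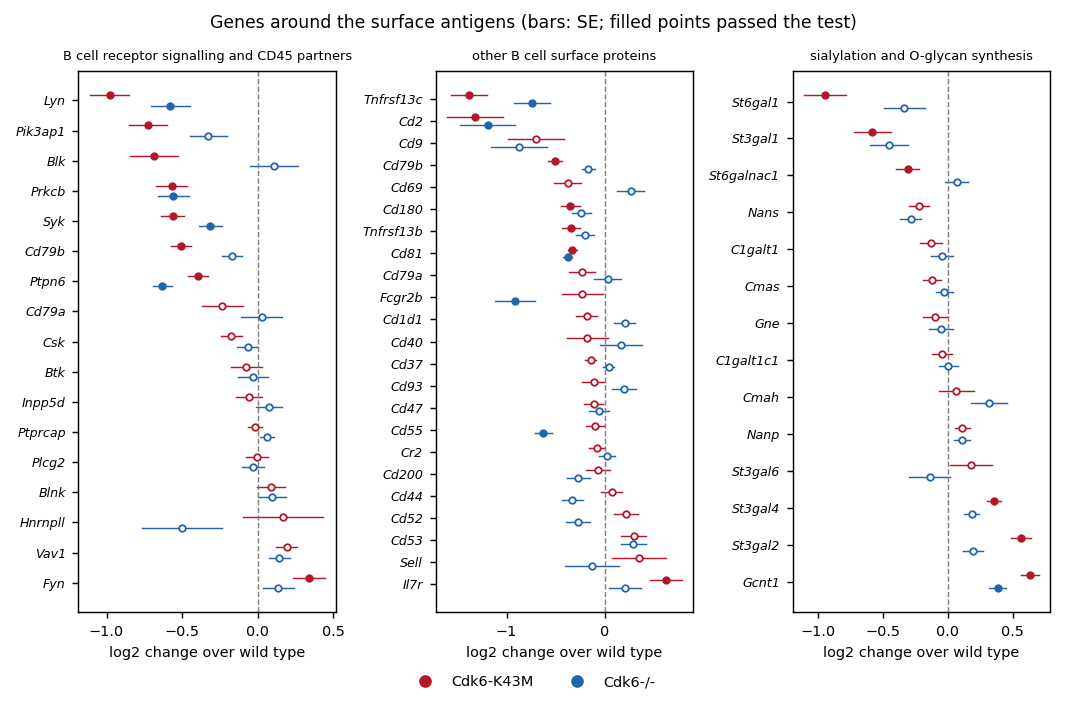
Log2 change over the wild-type pool (horizontal axis, bars 1 SE) of genes of B cell receptor signalling (left), other B cell surface proteins (middle) and glycan synthesis (right), with Cdk6-K43M in red above Cdk6-/- in blue. Filled points passed the test. Lyn (-0.98 in Cdk6-K43M) and Tnfrsf13c (-1.38 in Cdk6-K43M) are the top rows of the first 2 panels, and Gcnt1 (0.63) is the bottom row of the third.

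Relatives of the 9 genes were counted in the same way. As above, 20.1% of all genes were called in Cdk6-K43M and 7.24% in Cdk6-/-. None of 6 testable MS4A genes and none of 4 testable SIGLEC genes passed in either mutant, and Ms4a7 read -0.07 in Cdk6-K43M and -1.73 in Cdk6-/- (adjusted p = 0.0581, limma). Of 8 testable genes of the LY6 family, 3 were higher and 2 lower in Cdk6-K43M, and 1 was lower in Cdk6-/-. The higher ones, Ly6a (1.60), Ly6c1 (1.61) and Ly6c2 (1.59), are close relatives whose probes may cross-hybridise. All 3 calls were lost without Cdk6-K43M replicate 2, and the single Cdk6-K43M samples of Ly6a ranged from 0.14 to 3.24. Ly6k was called lower in both mutants but was not well above background in any single mutant sample, so no fold is given, and Ly6e was at -0.23 in Cdk6-K43M. Of 8 testable genes of NAD metabolism, the substrate of CD38 and CD157, Nmnat1 passed, at 0.41 in Cdk6-K43M (adjusted p = 0.00131, limma), and none passed in Cdk6-/-.

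Markers of cell types were read beside these results. Their counts stand beside 20.1% of all genes called in Cdk6-K43M and 7.24% in Cdk6-/-. All 14 markers of pro-B and pre-B cells were well above background in every single sample. Of these, 5 were higher in Cdk6-K43M: Rag2 at 1.14, Rag1 at 0.77, Dntt at 0.68, Il7r at 0.62 and Ebf1, the factor whose motif is in the Cd22 promoter, at 0.40. The other probe of Rag2 read 0.36. In the same comparison 2 were lower, Cd79b, given above, among them, and 7 did not pass. The median of the 14 was 0.0086, beside -0.01 for all genes. In Cdk6-/- 1 was higher, Igll1 at 0.38, none was lower and 13 did not pass. The median there was 0.20, beside 0.0014 for all genes. Of 6 testable markers of mature B cells, only Tnfrsf13c passed, and of 5 of plasma cells only Irf4, at -1.07 in Cdk6-K43M and -0.91 in Cdk6-/-. Of 14 testable granulocyte, monocyte and macrophage markers, 6 were lower and none was higher in each mutant, with a median change of -0.15 in Cdk6-K43M and -0.64 in Cdk6-/-. S100a9 was at -3.94 in Cdk6-K43M and -4.16 in Cdk6-/-, and it passed under all 18 other settings. Its size depended on the processing, from -5.29 to -3.78 in Cdk6-K43M and from -6.00 to -4.10 in Cdk6-/-. Camp and Mpo were well above background in no Cdk6-K43M sample, and S100a8, Camp and Ngp in none of the Cdk6-/- samples. The summed signal of those 14 markers ran from 37466 to 46541 in Cdk6-K43M samples, from 35238 to 48801 in Cdk6-/- samples and from 41754 to 48172 in the wild-type channel. For the 6 mature B cell markers it ran from 3833 to 4826 in Cdk6-K43M samples, from 4679 to 5642 in Cdk6-/- samples and from 6539 to 7729 in the wild-type channel. For the 5 plasma cell markers it ran from 13428 to 20476 in Cdk6-K43M samples, from 10884 to 18344 in Cdk6-/- samples and from 22806 to 29197 in the wild-type channel. Both of these sums lay wholly below wild type in each mutant, and the granulocyte, monocyte and macrophage sums overlapped it. A sum weighs the brightest genes most, and the median changes did not all follow the sums. For the mature B cell markers the median was -0.13 in Cdk6-K43M and 0.03 in Cdk6-/-. For the plasma cell markers it was 0.08 in Cdk6-K43M and -0.36 in Cdk6-/-. The T and NK cell sum ran from 11408 to 28752 in Cdk6-K43M samples, from 12775 to 18392 in Cdk6-/- samples, below wild type, and from 18964 to 21355 in the wild-type channel. Of 7 testable T and NK cell markers, 2 were higher (Thy1 at 2.79 and Tcf7) and 1 was lower (Cd2) in Cdk6-K43M, and 2 were higher (Thy1 at 2.14 and Lck at 0.54) and 2 lower (Cd2 and Tcf7) in Cdk6-/-. Between 0 and 1 of the testable erythroid (4), stem and progenitor (5) and plasmacytoid dendritic cell (6) markers passed in each direction. The part of these marker changes in the values of the surface antigens was not tested.

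The scaling of the arrays bears on all directions given here. Of all genes called in Cdk6-K43M against wild type, 48.7% were higher after loess and 87.9% after median centring, which placed the median of all genes at 0.11. For Cdk6-/- the shares were 46.8 and 63.5%, and for Cdk6-K43M against Cdk6-/- 51.3 and 65.9%. Under median centring the Cdk6-K43M values of Ms4a1 (-2.53), Ly6d (-2.60), Cd22 (-1.03) and Spn (0.76) still passed, Bst1 passed at 0.47, and Ptprc turned to 0.12 without passing.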

How the data were processed

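Per the file headers, Agilent Feature Extraction (version 11.5.1.1) gave the intensity of every spot and of its surroundings. The authors also deposited log2 values whose table is named as loess normalized, with the background correction behind them unstated. The labels' protocols name the RNeasy Micro kit and amplification of 100 ng RNA. Here limma (3.58.1, R 4.3.3, data.table version 1.17.8) was applied to the scanner intensities: normexp on median signals and backgrounds (offset 50), loess within arrays with control spots at weight 0, non-uniform spots set to missing, and spots of a probe averaged. Probes were kept that the scanner software called well above background in 3 or more of the 4 samples of either mutant, or in 5 or more of the 10 wild-type channels. Of these 28177 probes, the brightest per gene was used for 22008 genes, named by transcript through RefSeq (GRCm38.p6).

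Comparisons with wild type used all 10 arrays with a dye term. Comparisons between genotypes used the 8 single-sample arrays. P-values were moderated by eBayes and adjusted by Benjamini-Hochberg over all genes, or all probes for the probe-wise test. The exchanged-dye pools hold the same RNA again, so the residual spread may be too small. Slide was no term of these fits and was entered as a block in an alternative. Alternatives covered background correction, normalization, the dim-probe filter, the probe rule, slide, dye-swap arrays, the pool's spread, the deposited table, the replicate block and each left-out replicate.

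The members and lists were chosen with earlier results of these data known. Named genes are the 9 members, up to 4 called genes with the smallest p per list and comparison (some marker genes so named are given as counts only), and the genes most like each member (the first of 3 is printed). Fyn, Il7r, Ms4a7, Rag1, Dntt, St3gal1, St6galnac1 and Ly6e were named after their values were seen, to complete short counts or set beside a member. A gene that is not reported here counts in the lists and is not drawn.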

Additional observations from a re-analysis of the deposited data

How the results depend on the processing

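Each comparison was repeated under 18 other settings, and no value of the 9 genes that passed the test changed its sign. In every count out of 18, 1 setting repeats the main fit. It scales the average intensities between arrays, which leaves the log ratios as they were, so its result could not differ. Ms4a1, Ly6d and Spn passed in Cdk6-K43M under all 18. Of the 9 genes, 2 passed in Cdk6-/-, and this count was 0 with Agilent's processed signals, 1 with median centring, 1 with the slide as a block, 4 on the 8 single-sample arrays without a dye term, 0 with errors widened by the spread that a pool of 4 samples would have, and 0 to 3 when 1 replicate was left out (0 without Cdk6-/- replicate 1 or replicate 2). With the slide as a block the 1 gene was Ms4a1, and neither Ly6d nor Spn passed in Cdk6-/-. In Cdk6-K43M the count of 5 was 8 on the 8 single-sample arrays, 3 with widened errors, and 4 to 6 with 1 replicate left out. Between the genotypes the count of 0 was 1 in the fit of all 10 arrays and 0 with any replicate left out. Over all genes, the 1593 calls in Cdk6-/- were 802 with median centring, 822 with the slide as a block, 3292 on the 8 single-sample arrays, 130 with widened errors and 612 to 1931 with 1 replicate left out. The 4427 calls in Cdk6-K43M were 1270 with widened errors and 3592 to 4505 with 1 replicate left out. The 113 calls between the genotypes were 73 with processed signals, 33 with the slide as a block, 559 in the fit of all 10 arrays, 37 with the replicate block and 36 to 77 with 1 replicate left out. The fits with 1 replicate left out also held fewer samples, and the cause of these shifts was not tested. The replicate numbers were not taken as pairs: deviations of same-numbered samples correlated at -0.07 to 0.23, and 2 of 4 samples matched their own number best; with the replicate block none of the 9 genes passed. Cd22 in Cdk6-K43M did not pass with processed signals (adjusted p = 0.0611, limma) or widened errors (0.17). Signal over background limits the dimmest Cd22 probe.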
